A study of Solanum lycopersicum with 4 samples.

Results

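Solyc04g071610 is a tomato gene annotated as water-stress inducible protein 3, with the ABA/WDS domain (IPR003496), a domain named for abscisic acid and for water deficit stress. It was chosen by its measured values: its cDNA carried one of the heaviest loads of degradome tags in ripening fruit, without a slicing peak. All of its entries in the 3 deposited tables were taken. These were 3 of 12952 entries, 3 of 12619 distinct sites and 1 of 5373 genes. The choice rested on the gene's tag values, its peak categories and its alignment penalty in the same libraries, so these values are a description and no test was made of them.

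Whole fruits of the variety Ailsa Craig were taken from greenhouse plants, with no treatment named, with 1 library for each of 4 stages. The youngest were picked 5 days after pollination; the others were mature green fruit, fruit at breaker, when colour first shows, and fruit kept until 7 days past breaker. Degradome sequencing (PARE) sequences the 5′ ends of RNA fragments that lack a cap and still carry a poly(A) tail, so a tag marks a place where an RNA had been cut or was being degraded. Values are in tags per 10000000 tags (TP10M), which the authors normalized and rounded to whole numbers. With 1 library per stage no difference has a replicate check, and the comparisons are between libraries. In libraries of whole fruit, a change in the share of a tissue and a change of RNA within its cells cannot be told apart.

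Proteins with the ABA/WDS domain are known as ASR proteins, after abscisic acid, stress and ripening. They are small and hydrophilic, bind zinc and DNA in tomato, and are made in plants that lose water or are given abscisic acid, and in ripening fruit. The microRNAs miR156 and miR157, under whose joint name the gene is listed, are known to guide the slicing of mRNAs of the SBP-box family of transcription factors. Slicing leaves the 5′ end of the downstream fragment opposite position 10 of the microRNA, so a sliced mRNA has a sharp stack of tags at that position. A transcript that decays by other routes leaves tags at many positions.

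Tags on the whole cDNA of Solyc04g071610 were scarce in the youngest fruit and abundant in the other 3 libraries. The cDNA total was 227 TP10M in the fruit of 5 days after pollination. Mature green fruit had 56037 TP10M, breaker fruit 76598 and the last stage 84078. The step between the green stages was thus the large one, and the 3 later values lay close together. The order of the levels followed the stages, but the order of the last 3 has no spread to be set against.

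The cDNA total at mature green was 247-fold that at 5 days after pollination, a log2 ratio of 7.94 on the scale of log2(TP10M + 1). A cDNA was called higher or lower where it was listed in both libraries, its values summed to at least 50 TP10M and they differed by at least 2-fold. By this rule 10.4% of 2284 cDNAs were higher at mature green and 18.6% were lower, and Solyc04g071610 had the highest ratio of them all. From mature green to breaker its log2 ratio was 0.45, which was not called, while 8.68% of 1394 cDNAs were higher and 28.2% lower. From breaker to 7 days after breaker the log2 ratio was 0.13, also not called, with 23.4% of 1336 cDNAs higher and 7.26% lower. Median-of-ratios scaling of the libraries turned this last ratio to -0.35. From the first to the last stage the cDNA total differed 370-fold (log2 ratio 8.53), against a background of 13.7% of 2047 cDNAs higher and 23.7% lower.

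Set against the other listed cDNAs, the gene went from an ordinary place to the top. At 5 days after pollination it ranked 2062 of 3716 listed cDNAs, near the median cDNA total of 267 TP10M. It ranked 3 of 3379 in mature green fruit, then 1 of 1879 at breaker. In the last library it ranked 1 of 2978, where the median was 257 TP10M. Tags on this cDNA alone made up 0.560% of all tags in the mature green library, against 0.00227% in the youngest fruit. The share was 0.766% for breaker fruit and 0.841% for the last stage. These totals are tags per cDNA and are not divided by its length, which the tables do not give, and a cDNA's total is known only in libraries where a peak on it was listed. The sources used here do not say how tags that match several related genes were assigned.

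**Figure D1:**
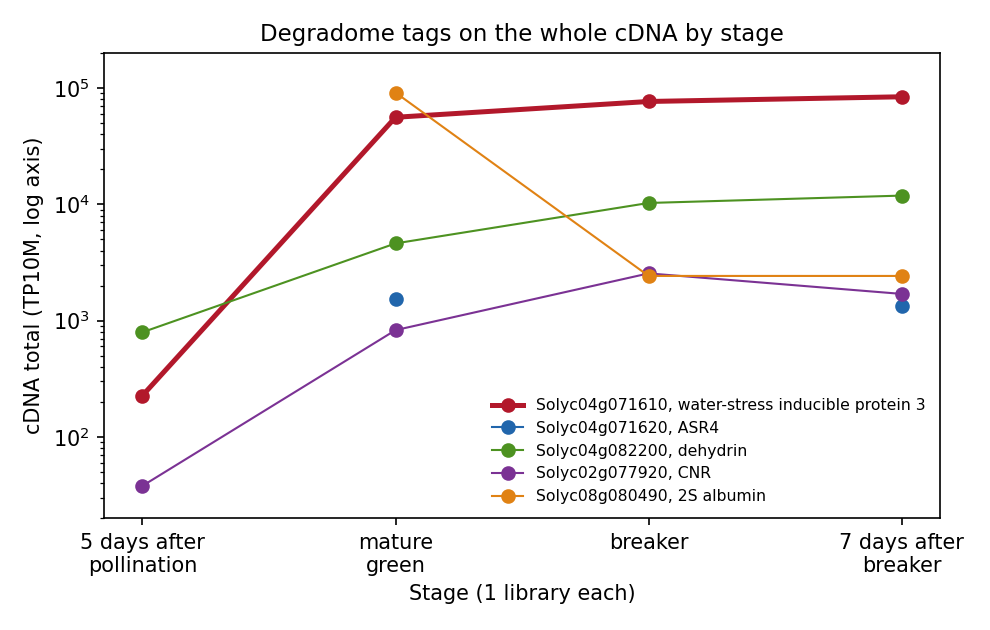
Degradome tags on the whole cDNA (TP10M, log axis) at the 4 stages, 1 library each, for Solyc04g071610 and 4 other genes; a missing point means that the cDNA was not listed in that library. Solyc04g071610 goes from 227 to 56037 between the green stages and stays above that value, while the 2S albumin of seeds goes from 91336 at mature green to 2424 at breaker.

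The 3 listed positions were consecutive bases of the cDNA, 620, 621 and 622, opposite positions 11, 10 and 9 of a single predicted alignment. The alignment penalty was 7, where lower scores are better matches. Opposite position 9 the youngest fruit had 2 TP10M, mature green fruit 893, breaker fruit 953 and the last stage 1200. Opposite position 10, where slicing would fall, the values were 2, 411, 513 and 659 TP10M in stage order. Opposite position 11 they were 1, 305, 590 and 514 TP10M. The neighbour at position 9 was therefore higher than position 10 in the 3 later libraries, and position 11 was higher than position 10 at breaker.

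All 12 of these values (3 positions in 4 libraries) were peaks of category 2 in the authors' deposited table. In CleaveLand, the program that made the calls, category 2 is known to mean a position above the typical level of its cDNA but below its highest position, and category 0 marks the highest position itself. By that meaning some other position of the cDNA carried more than 1200 TP10M at 7 days after breaker. The authors' deposited table gave a likelihood of a chance peak of p = 1 at each position in 3 libraries and p = 0.98 at breaker, and gave no q-value.

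Position 10 held 25.5% of the tags at the 3 positions in the mature green library, 25.0% in the breaker library and 27.8% in the last. Position 9 held 55.5%, 46.4% and 50.6%, and position 11 held 19.0%, 28.7% and 21.7%. The 5 TP10M at 5 days after pollination are too few, after rounding, to be split in this way. Small RNA position 9 thus had the largest share in all 3 later libraries, and position 10 had no more than 27.8% in any of them.

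**Figure D2:**
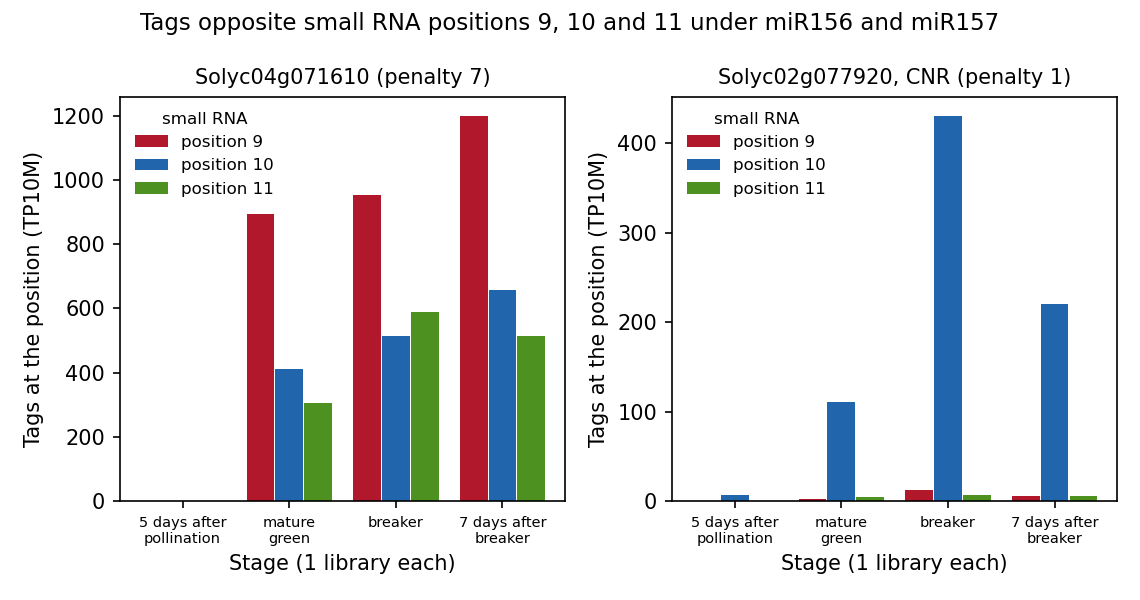
Tags (TP10M) opposite small RNA positions 9, 10 and 11 at the 4 stages, 1 library each, for Solyc04g071610 (left) and for CNR, Solyc02g077920 (right), with separate vertical axes that start at 0. In Solyc04g071610 the tags lie on all 3 positions with position 9 highest, up to 1200, while in CNR they lie almost wholly on position 10, up to 431.

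The share of the cDNA's tags that lay at these 3 positions was nearly constant while the total changed. It was 2.87% in mature green fruit, 2.68% in breaker fruit and 2.82% in the last library. At 5 days after pollination it was 2.20%, and rounding of the deposited values alone allows 1.54 to 2.87%. The summed value of the 3 positions went from 5 to 1609, 2056 and 2373 TP10M, with log2 ratios of 8.07, 0.35 and 0.21 between successive stages. For such sums over a gene's positions, a position not listed in a library counted as 0. A gene thus did not have to be listed in both libraries to be called. On that basis 30.9% of 81 genes were higher and 25.9% lower in the mature green step. The breaker step had 30.6% of 62 genes higher and 40.3% lower, and the last step 28.3% of 60 higher and 45% lower. The tags at the site thus followed the tags of the whole cDNA in these libraries.

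Each of the 3 positions nevertheless carried more than an average position of the cDNA in the later libraries. A cDNA that reaches at least base 622 has a mean share of at most 0.161% per base. At 7 days after breaker position 9 held 1.43% of the cDNA total, position 10 held 0.784% and position 11 held 0.611%. These are 8.88, 4.88 and 3.80 times the highest value the mean can take, which was 135 TP10M in that library. At mature green the same ratios were 9.91, 4.56 and 3.39, and at breaker 7.74, 4.17 and 4.79.

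**Figure D3:**
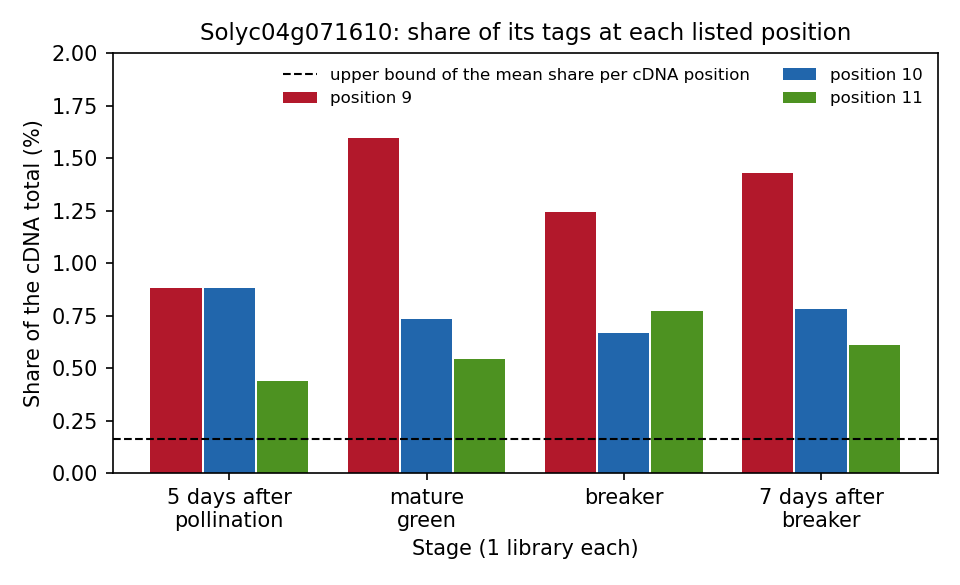
Share of the cDNA total of Solyc04g071610 (%) opposite small RNA positions 9, 10 and 11 at the 4 stages, 1 library each, with the upper bound of the mean share per base (0.161%) as a dashed line. All bars lie above the line, but at 5 days after pollination the smallest whole value, 1 TP10M, is already 0.441% of the cDNA total. The bars of that library therefore do not show whether the positions exceed the mean. Position 9 is highest in the 3 later libraries, at 1.59%, 1.24% and 1.43%.

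Few listed sites had more tags. The site opposite position 9 was the most tagged of 6460 listed sites in mature green fruit and of 5922 in the last library, and had rank 2 of 3328 at breaker. Together the gene's 3 sites held 12.4%, 15.7% and 20.1% of all TP10M at listed sites in those libraries. They held 0.0405% in the youngest fruit.

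CNR (Solyc02g077920), an SBP-box regulator of ripening, had the highest position 10 peak of category 0 or 1 under the same small RNA name. Its alignment had a penalty of 1, and its position 10 site (cDNA base 840) had 7, 111, 431 and 221 TP10M in stage order. Its position 9 had 0, 3, 13 and 6 TP10M and its position 11 had 0, 5, 7 and 6. Position 10 was of category 0 in all 4 libraries in the authors' deposited table, with p = 0.01 and q = 0.03 in each. That position held 13.4% of the cDNA total of CNR in mature green fruit, 16.9% in breaker fruit and 13.0% in the last library. CNR therefore had a cDNA total of 2549 TP10M at most, far below that of Solyc04g071610, but a far larger part of it at 1 base.

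The poor match of Solyc04g071610 was shared by many entries under the joint name of miR156 and miR157. Of 384 entries on 182 genes, 161 had a penalty of 7. Among 53 genes listed at position 10 with that penalty, 2 had a peak of category 0 or 1 there in any library, against 6 of 7 genes with a penalty up to 3. The agglutinin gene Solyc03g116230, which encodes a chitin-binding lectin, was the next most tagged at a penalty of 7. Its positions 9, 10 and 11 had 73, 55 and 57 TP10M in mature green fruit and 49, 49 and 47 in the last library, all of category 2. Its tags were thus also spread over the 3 positions.

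Across small RNA names, position 10 held most of the tags where it was a peak of category 0 or 1 and a smaller part elsewhere. This comparison took alignments with values at all 3 positions that summed to at least 50 TP10M. At mature green, the 5 alignments with category 0 or 1 had 86.2 to 99.9% at position 10, and the 17 others had 1.39 to 66.8%, with a median of 33.3%. At 7 days after breaker the 3 of category 0 or 1 had 94.8 to 98.3%, and the 9 others had 2.14 to 62.2%, with a median of 27.8%, which is the value of Solyc04g071610 itself. The lowest share in both these libraries was that of the abscisic acid receptor gene PYL8 (Solyc01g095700), also under miR156 and miR157. Its tags lay almost wholly at position 9, with 141 of 144 TP10M at mature green, so the others were not all spread. At breaker the 7 of category 0 or 1 had 78.6 to 99.4%. Among the 11 others Solyc04g071610 and Solyc02g080510, listed under miR165 and miR166, had the lowest shares, both 25.0%. The highest of those 11 was 95.8%, at a superoxide dismutase gene under miR398 (Solyc01g067740). The categories themselves depend on the height of position 10, so these ranges describe the alignments and do not test them.

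**Figure D4:**
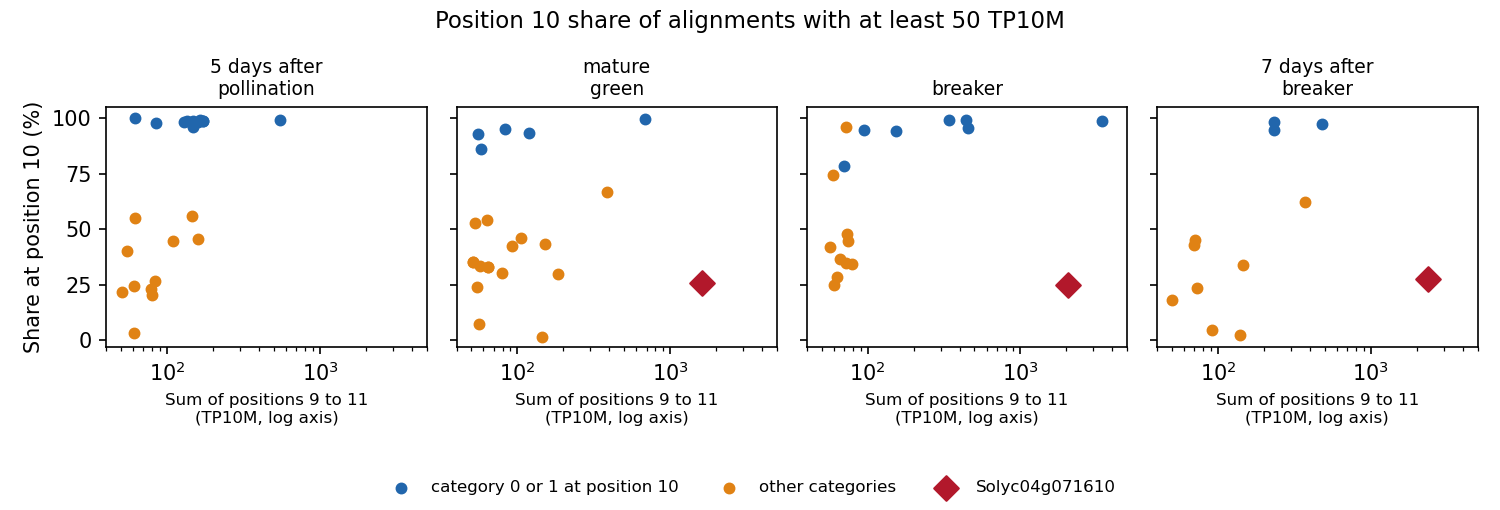
Share of the tags of an alignment that lay at position 10 (%) against the sum of its positions 9, 10 and 11 (TP10M, log axis), for alignments of at least 50 TP10M in each library. Solyc04g071610 is the diamond, at 25.5%, 25.0% and 27.8% in the 3 later libraries and absent from the first, where its sum was 5 TP10M.

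Among the alignments without category 0 or 1 at position 10, Solyc04g071610 had the highest sum in each of the 3 later libraries. By the share of the cDNA total at the 3 positions it ranked 3 in each of them, where the medians were 0.855%, 0.645% and 1.69%. Where position 10 was of category 0 or 1, the 3 positions together held 6.48 to 47.0% of the cDNA total in mature green fruit and 8.80 to 30.2% in the last library. The 2.87% and 2.82% of Solyc04g071610 lie below those ranges.

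Its site values also moved little as a part of the cDNA. Of 9 sites with at least 50 TP10M in each of the 3 later libraries, its position 10 site varied least as a share of its cDNA total, 1.17 times from the lowest to the highest library. Its position 9 and position 11 sites varied 1.28 and 1.42 times. Some sites of other genes were about as steady. The site of growth-regulating factor 5 (Solyc12g096070, under miR396) varied 1.24 times, that of CNR 1.30 times and the position 9 site of PYL8 (Solyc01g095700) 1.32 times. The site of AP2a (Solyc03g044300), a ripening regulator sliced under miR172, varied 2.13 times. That of auxin response factor 17 (Solyc11g013470, under miR160) varied 2.43 times, and that of the miR403 target Solyc02g069260 3.48 times. The other 6 sites were all of category 0 at 7 days after breaker, so no spread site of another gene was in this comparison.

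A heavy load of tags came without a standing peak in other cDNAs too, and such peaks were rare throughout. The 43 cDNAs with a total of at least 10000 TP10M in some library include Solyc04g071610, which was chosen as lacking a slicing peak. Of these 43, 0 had a listed site of category 0 or 1 in any library, against 3.53% of the other 5330 cDNAs. At that rate few would be found among 43 cDNAs in any case, so the count of 0 sets the heavy cDNAs apart little. Their listed sites are those opposite a predicted small RNA match, so their highest positions need not be listed.

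The 10 other cDNAs with the highest totals had peaks of categories 2 to 4 at their listed sites. Solyc08g080490, a 2S albumin stored in seeds, had 91336 TP10M at mature green and 2424 and 2423 in the ripening libraries. The legumins Solyc09g072560 and Solyc09g090150, also seed storage proteins, had 58849 and 41723 TP10M at mature green. The methionine sulfoxide reductase Solyc03g111720, an enzyme that repairs oxidized protein, had 321 TP10M in mature green fruit, 52424 in breaker fruit and 23458 in the last library. The adenosylhomocysteinase Solyc09g092380, which clears the by-product of methylation reactions, had 4785, 5262, 50419 and 33237 TP10M in stage order. For Solyc09g092380 the large step came at breaker, after that of Solyc04g071610. Solyc03g111720 also had a large step at breaker, but it was not listed in the youngest fruit, so its first step is not known.

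Others of the 10 were highest in young fruit or varied less. Solyc01g094530, an acyl-CoA thioesterase, had 74062 TP10M at 5 days after pollination and was not listed later. The protein kinase Solyc12g038920 had 60964 and 46341 TP10M at the green stages and was not listed at the ripening stages. The ethylene responsive transcription factor 2a Solyc03g123500 had 35281, 7013, 16043 and 12365 TP10M in stage order. The tumor protein homolog Solyc01g099770, a widely expressed growth-related protein, had 11778, 34746, 41069 and 24463, and the type 2 metallothionein Solyc09g010800, which binds metal ions, had 11351, 26380, 37324 and 22114. The 4 of these 10 that were listed in all 4 libraries had at least 4785 TP10M in the youngest fruit, against 227 for Solyc04g071610.

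Seed transcripts were heavily tagged in the mature green library. Of 13 listed genes annotated as legumin, 2S albumin, vicilin or oleosin, 10 were listed at mature green, with 206097 TP10M in all. The sum was 5805 TP10M over 6 listed genes in breaker fruit and 8315 over 10 in the last library. None was listed at 5 days after pollination, so their values there are not known and the first step could not be compared. Of 5 that could be compared between mature green and breaker, 4 were lower and 0 higher, against 28.2% lower and 8.68% higher over all cDNAs. Solyc04g071610 had its higher values in those ripening libraries, where the seed sum was low. The part of seed tissue in its mature green value was not tested.

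A further gene with the ABA/WDS domain was in the tables, its neighbour by identifier, Solyc04g071620, annotated as ASR4. It was listed under miR414 at a penalty of 6.5 and had a cDNA total of 1526 TP10M in mature green fruit and 1325 in the last library. It was not listed in the other 2 libraries. Its listed sites had 0 TP10M at mature green, and 1 TP10M opposite position 11 at 7 days after breaker. The remaining neighbours listed were a bZIP transcription factor (Solyc04g071510, 77 TP10M at breaker), thioredoxin y (Solyc04g071560, 166 at 7 days after breaker) and a cellulose synthase (Solyc04g071650, 1542 and 2089 at the green stages). Of these only Solyc04g071620 shared the annotated domain with Solyc04g071610.

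Dehydrins and late embryogenesis abundant proteins protect cells that lose water. Genes with these names or a word for dehydration in their annotation formed the list closest by annotation. 28 of them were listed besides Solyc04g071610, and 27 reached 10 TP10M in a library. The list was taken by words only, and includes Solyc02g084850, named as an unknown protein. From 5 days after pollination to mature green 4 of the 18 that could be compared were higher and 1 lower, against 10.4% and 18.6% of all cDNAs. The median log2 ratio was 0.48 against -0.23 over all cDNAs. After median-of-ratios scaling 6 were higher and 1 lower, against 273 and 349 of 2280 cDNAs. The dehydrin Solyc04g082200 had 795, 4615, 10273 and 11889 TP10M in stage order, and the dehydration-responsive gene Solyc01g091690 had 138, 1508, 2512 and 3078. As deposited, both had higher values at each later stage, in the order of Solyc04g071610. After scaling the last step was lower for all 3 genes, with log2 ratios of -0.27 and -0.19 for these and -0.35 for Solyc04g071610. The step to mature green was smaller in both than in Solyc04g071610, with log2 ratios of 2.54 and 3.44. The group 3 late embryogenesis abundant gene Solyc12g010820 went from 40 to 195 TP10M and Solyc08g005490 from 359 to 1064.

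At breaker the balance of the list depended on the scaling of the libraries. Of 9 that could be compared with mature green 1 was higher, the dehydrin Solyc04g082200, and 5 were lower, but after median-of-ratios scaling 2 were higher and 1 was lower. Over all cDNAs 8.68% were higher and 28.2% lower as deposited, and after scaling 202 of 1395 were higher and 225 lower. The list's lower genes as deposited included the late embryogenesis abundant gene Solyc03g116390 (3099 to 582 TP10M) and Solyc08g015690 (2044 to 925). In the last step 3 of 9 were higher and 0 lower, close to the 23.4% higher and 7.26% lower over all cDNAs. After scaling 0 were higher and 0 lower, against 120 and 182 of 1339 cDNAs. From the first to the last stage 3 of 14 were higher and 3 lower, with a median log2 ratio of -0.11 against -0.23 over all cDNAs. The dehydrin DHN1 gene Solyc02g084840, not listed in the youngest fruit, had 2750, 1733 and 4615 TP10M in the later libraries.

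Several genes of ripening had a large step at breaker. A list of 59 genes was taken by set words in the annotation for cell wall loosening, ethylene synthesis and response, or carotenoid synthesis. Of these, 2 were invertase inhibitors, taken in by their domain name. The words took ethylene-responsive only with a hyphen, so the ethylene responsive transcription factor 2a Solyc03g123500 was left out of the list and its counts. That gene had 35281, 7013, 16043 and 12365 TP10M in stage order, lower at mature green and higher again at breaker. From the list 4 of 19 were higher and 4 lower at mature green than at 5 days after pollination, against 10.4% and 18.6% of all cDNAs. At breaker 5 of 13 were higher than at mature green and 3 lower, against 8.68% and 28.2% of all cDNAs. After scaling 6 were higher and 3 lower, against 202 and 225 of 1395 cDNAs. As deposited, all 3 lower genes were ethylene-responsive or AP2-like transcription factors, but the AP2-like gene AP2a was among the higher (364 to 5359 TP10M). The ethylene-forming oxidases Solyc07g049530 (553, 1374, 16973 and 11612 TP10M) and Solyc07g049550 (422, 474, 9934 and 4489) were also higher. Pectate lyase Solyc03g111690, which loosens the cell wall, had 2352, 20831 and 24025 TP10M from mature green on, and the carotenoid enzyme Solyc12g098710, 15-cis-zeta-carotene isomerase, had 214, 3382 and 6862. In the last step 2 of 15 were higher and 4 lower, against 23.4% and 7.26% of all cDNAs. After scaling 1 was higher and 7 were lower, against 120 and 182 of 1339 cDNAs. From the first to the last stage 6 of 17 were higher and 9 lower, with a median log2 ratio of -1.47 against -0.23 over all cDNAs. Solyc04g071610 had its large step before breaker. Its log2 ratio of 0.45 from mature green to breaker was above the median of -0.03 of the 13 ripening genes compared. The 5 higher genes had 3.15 to 4.39, but they were picked by being called, so an uncalled gene had to lie below them.

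The profiles most like that of Solyc04g071610 were sought among 1025 cDNAs that were listed in all 4 libraries and reached 50 TP10M. Likeness was the root mean square difference of log2(TP10M + 1) values, each cDNA centred on its own mean over the 4 libraries, and the median over the 1025 was 3.72. The nearest was a universal stress protein gene, Solyc04g014600, at 1.18, with 47, 2868, 1638 and 4985 TP10M. CNR came next at 1.36, with 38, 829, 2549 and 1698 TP10M. The glucosyltransferase Solyc09g092500, which attaches sugars to small molecules, was at 1.64 with 51, 778, 1107 and 2688. Heat shock protein 1 (Solyc09g075950) was at 1.69 with 37, 433, 924 and 2197, and the GDSL lipase Solyc03g111550 at 1.73 with 66, 1145, 1902 and 1189. All 5 had their lowest value at 5 days after pollination, which a choice by likeness to this profile favours. None had as large a step to mature green as Solyc04g071610, whose ratio there was the highest of all 2284 cDNAs compared.

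**Figure D5:**
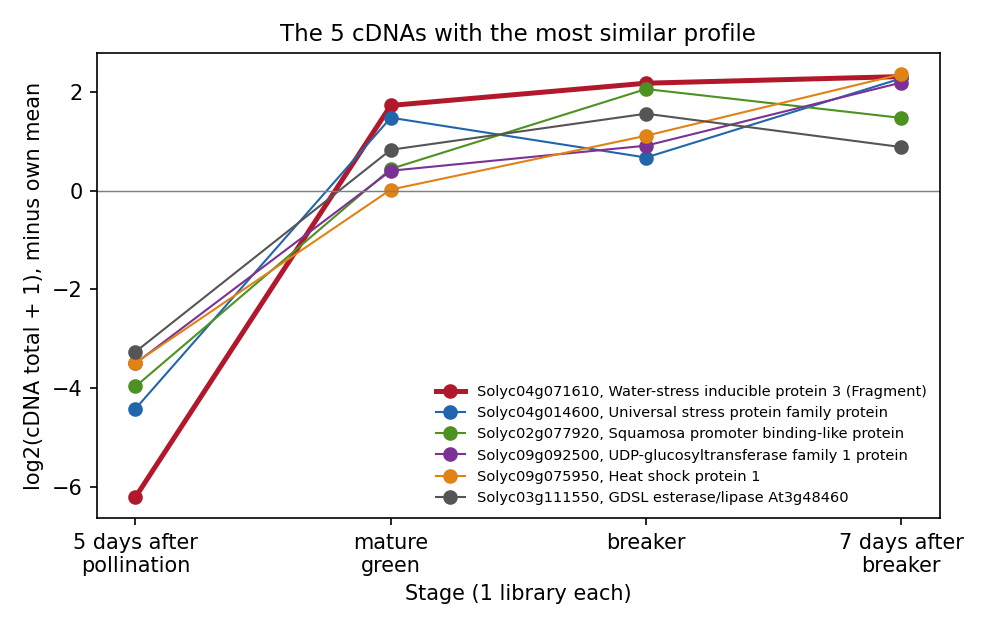
Profiles over the 4 stages, 1 library each, of Solyc04g071610 and the 5 cDNAs most like it, as log2(cDNA total in TP10M + 1) minus the cDNA's own mean. All 6 are lowest at 5 days after pollination, where Solyc04g071610 lies at -6.21 and the others between -4.42 and -3.27.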

How the data were processed

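Per the labels' protocols, polyadenylated RNA of whole fruits was carried through the PARE procedure. CASAVA 1.8.0 is named in the submitters' processing notes, and the sources used here name no aligner, settings or filters. The 3 deposited tables hold CleaveLand output for ITAG 2.3 cDNAs, 1 table each for small RNA positions 9, 10 and 11, per the file headers. The deposited tag values are scores in TP10M, rounded by the authors, and the deposited penalty is a TargetFinder score per the column name. Deposited p-values are CleaveLand's and deposited q-values were corrected by Benjamini-Hochberg, as the headers state. Library totals are not given, so the depth is unknown and no counting interval was computed. A value of 0 TP10M stood only at category 4 peaks.

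Entries with a gene identifier were read with Python 3.11.15 and pandas 2.3.3. A dash was taken as not listed, and counted as 0 in the sums over a gene's positions. Ratios used a pseudocount of 1 TP10M, which understates changes of low values. Alternatives were a pseudocount of 5, median-of-ratios size factors from 1021 cDNAs having at least 10 TP10M in each library, and leaving out each table. The gene, the lists and the comparisons were chosen with earlier results of these data known. Named genes were the 10 highest cDNA totals, identifier neighbours, list members, the 5 nearest profiles, and the gene with the highest category 0 or 1 site under the same small RNA name. From the ripening list, in which 50 of 59 genes reached 50 TP10M, the most tagged were named. The genes other than Solyc04g071610 and CNR among the 9 sites compared by share, with Solyc03g116230 and Solyc01g067740, were chosen after their values were seen. The minimums of 50 TP10M for sums and of 10000 TP10M for heavy cDNAs were also set then.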

Additional observations from a re-analysis of the deposited data

How the results depend on the processing

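The step from 5 days after pollination to mature green stayed the large one for Solyc04g071610 in all alternatives tried. With a pseudocount of 5 TP10M its log2 ratio was 7.92 for the cDNA total and 7.33 for the summed positions, and with median-of-ratios size factors 8.06 and 8.16. Without the position 9, 10 or 11 table the summed ratio was 7.49, 8.23 or 8.03. From mature green to breaker scaling gave 0.87 for the cDNA total and 0.77 for the sum, and leaving out the 3 tables in turn gave 0.62, 0.36 and 0.17. From breaker to 7 days after breaker scaling reversed both ratios, to -0.35 for the cDNA total and -0.27 for the sum, because the breaker library had the lowest size factor (0.779 against 1.04 to 1.14). Leaving out the tables gave 0.089, 0.15 and 0.34 for that step. None of these last 2 steps reached 2-fold in any alternative. A pseudocount of 5 did not change them to 2 decimals. Both shares of the summed positions were the same under the name miR156_157 alone, since the gene was listed under no other.

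Over all cDNAs, scaling turned the calls from 121 higher and 393 lower to 202 and 225 at breaker, and from 313 higher and 97 lower to 120 and 182 in the last step. It moved the median log2 ratio from -0.50 to -0.08 and from 0.46 to -0.02. In the first step the calls went from 238 higher and 425 lower to 273 and 349. Rounding to whole TP10M limits the values at 5 days after pollination, where the 3 positions had 1 or 2 TP10M.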
